A study of Mus musculus with 13 samples.

Results

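Genes named Spata, for spermatogenesis-associated, are described here across the testis libraries of a Wfdc15a knockout study. The members were taken by name: 20 of the 25965 genes in the deposited table have a symbol that starts with Spata and a digit. The measurement was RNA sequencing of whole testis, 1 library per mouse, from adult mice aged 15 weeks. By their labels 3 libraries were wild type (WT), 4 were heterozygous (Wfdc15a+/-, Het) and 6 were Wfdc15a-/- (KO). The series' design text takes WT and Het together as the control (n = 7) and asks what the gene does in spermatogenesis. Neither the strain nor the knockout allele is described in the labels used here. The titles carry a number, also unexplained, which is 1 for Het replicate 1 and KO replicates 1 to 3 and 2 for all other libraries. It is called the title number.

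Levels are in RPM, reads per M reads of the library total. The depth behind the values was 4.51 to 11.1 M reads per library, so that 3 reads, the limit a count of 0 allows, were worth 0.27 to 0.665 RPM (counting error only). Wfdc15a, which checks the labels, stood at 53.5 to 85.8 RPM in the controls, between 19.4 and 33.4 RPM in KO libraries of title number 1 and between 48.1 and 81.3 RPM in those of title number 2. Its RNA did not separate the number 2 libraries from the controls, so directions are stated for the KO-labelled libraries and not for a loss of Wfdc15a RNA. The RNA is from bulk tissue, in which fewer cells of a type and less RNA per cell cannot be told apart.

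Sperm form in the seminiferous tubules from spermatogonia, which become spermatocytes, pass through meiosis and leave as haploid spermatids. Spermatids then build an acrosome, condense the nucleus and assemble a tail with a mitochondrial sheath. The Spata symbol was given for expression or function in this process and not for a shared ancestor. Its holders therefore range from proteins of the sperm tail and acrosome to a meiotic recombination factor and to adaptors, ATPases and exchange factors that many tissues use.

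The stretches of genome before the start sites of 4 members are shown because they belong to the members that changed most and range from few to many CpGs. They are the 250 bases before the RefSeq start site (build GRCm38.p6, the same genome as mm10), written 5′ to 3′ on the gene's strand, with each CpG dinucleotide in capitals. Spata3, Spata19 and Spata18 were the members that fell furthest in the KO-labelled libraries, and Spata2 was the only one that rose.
Spata3 (chr1:86021695-86021944, plus strand): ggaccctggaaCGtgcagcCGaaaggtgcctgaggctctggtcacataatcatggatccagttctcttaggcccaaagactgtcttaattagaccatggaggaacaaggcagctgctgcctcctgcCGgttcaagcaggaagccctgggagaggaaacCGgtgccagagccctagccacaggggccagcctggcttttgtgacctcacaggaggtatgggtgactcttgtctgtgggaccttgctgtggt
Spata19 (chr9:27396557-27396806, plus strand): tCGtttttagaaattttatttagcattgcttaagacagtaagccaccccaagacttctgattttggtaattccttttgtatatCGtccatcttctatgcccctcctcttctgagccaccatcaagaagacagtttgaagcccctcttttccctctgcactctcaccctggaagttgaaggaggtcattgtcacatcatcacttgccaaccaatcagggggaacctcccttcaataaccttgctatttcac
Spata18 (chr5:73651130-73651379, plus strand): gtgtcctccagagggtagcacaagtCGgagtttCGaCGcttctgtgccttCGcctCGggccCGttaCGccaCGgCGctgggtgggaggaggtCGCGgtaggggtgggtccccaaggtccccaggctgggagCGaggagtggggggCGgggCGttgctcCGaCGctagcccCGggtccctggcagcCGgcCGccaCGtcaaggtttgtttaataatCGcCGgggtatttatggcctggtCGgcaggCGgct
Spata2 (chr2:167492875-167493124, minus strand): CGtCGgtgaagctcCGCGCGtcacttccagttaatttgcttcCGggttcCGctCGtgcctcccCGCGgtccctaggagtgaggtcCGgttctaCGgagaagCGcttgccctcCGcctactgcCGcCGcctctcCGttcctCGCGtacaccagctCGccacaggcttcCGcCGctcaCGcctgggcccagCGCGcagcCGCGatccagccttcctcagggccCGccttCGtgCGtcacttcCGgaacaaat
These windows hold 4, 2, 24 and 31 CpGs in that order. The start site used for Spata3 lies 5129 bases inside the span that the deposited table gives the gene, so its window is that of a shorter transcript.

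Spata RNA was abundant in the testis, and its total was lower in the KO-labelled libraries. The 20 members summed to a lowest value of 8076, a median of 8559 and a highest value of 9593 RPM in the 7 controls. In the 6 KO-labelled libraries they summed to 5916, 6626 and 7025 RPM, so the ranges did not overlap. The members differed widely among themselves. Per kilobase of exon (all annotated exons of a gene merged), the control level was highest for Spata4, at 959 ± 103 RPM per kb (SD, n = 7), followed by Spata20 at 629 ± 68.6. Spata19 (398 ± 56.0) and Spata18 (393 ± 36.0) lay closer together than their spread. Spata21 followed at 302 ± 14.6 and Spata6 at 254 ± 29.1. Then came Spata24 (231 ± 29.8), Spata16 (220.3 ± 11.5) and Spata3 (207 ± 17.2), where neighbours in this order differed by less than the larger of their SDs. After a gap came Spata9 (88.0 ± 18.2), Spata25 (55.7 ± 4.76), Spata7 (40.4 ± 4.74), Spata17 (34.0 ± 4.28), Spata5 (29.5 ± 3.17) and Spata1 (20.6 ± 2.42 RPM per kb). The lowest tested members were Spata2l at 8.26 ± 1.97, the meiotic Spata22 at 7.41 ± 1.43, Spata2 at 3.25 ± 0.708 and Spata13 at 0.582 ± 0.257 RPM per kb. Spata5l1 had 0 to 3 reads in a library. Its mean was under 1 RPM, so it was the 1 member left out of the tests, and no difference was detectable at this depth.

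Of the 19 tested members 10 fell and 1 rose in the KO-labelled libraries against the controls (limma, adjusted p under 0.05 over all 16235 genes tested). Among all genes tested 6.18% fell and 18.4% rose. The median log2 difference of the members was -0.21, while the median of all genes was 0.16. Most members were abundant, and abundant genes fell more often. Of the genes whose mean over all libraries reached 100 RPM 22.2% fell and 12.1% rose, with a median of -0.03, and of the 12 members in that class 9 fell and none rose, with a median of -0.36. Other scalings moved the split of all genes. With median-of-ratios scaling 10.6% of them fell and 10.5% rose, and of the members 11 fell and 0 rose. With quantile normalization 9.44% fell and 8.99% rose, and of the members 8 fell and 0 rose. These scalings moved the median of all genes by -0.14 and -0.17. No test was made of the members as a group, since the list was chosen with earlier results of these data known.

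**Figure D1:**
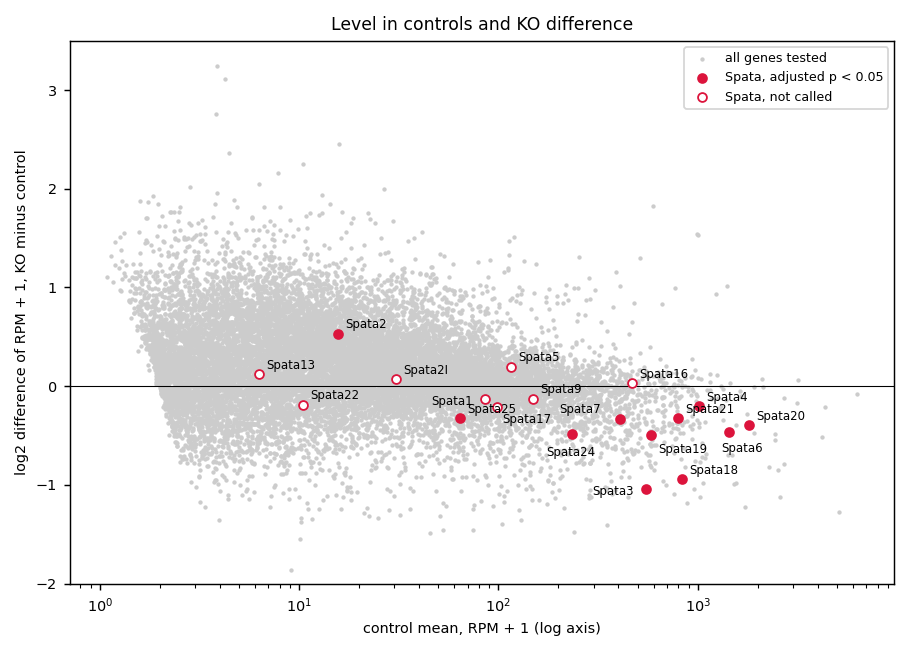
Each tested gene is a point, with its control mean in RPM + 1 on a log axis and its log2 difference of RPM + 1 between KO-labelled libraries and controls. Most Spata members (red, filled where called) that fell lie at the abundant end, and Spata2 is the only filled point above 0.

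In 6 members all KO-labelled libraries lay below all controls: Spata3, Spata18, Spata19, Spata24, Spata21 and Spata25. Such a complete separation downward was found for 2.89% of all genes tested. Shares of separated genes were not taken among abundant genes alone, which fell more often than all genes did. None of the members was separated upward, against 5.06% of all genes. In the coordinates of the deposited table (mm10) Spata3 spans chr1:86016816-86029958 on the plus strand, Spata18 chr5:73651380-73679484 on the plus strand, Spata19 chr9:27396821-27401710 on the plus strand, Spata21 chr4:141088333-141112760 on the plus strand and Spata25 chr2:164826389-164828537 on the minus strand. Each of these genes lies on another chromosome.

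**Figure D2:**
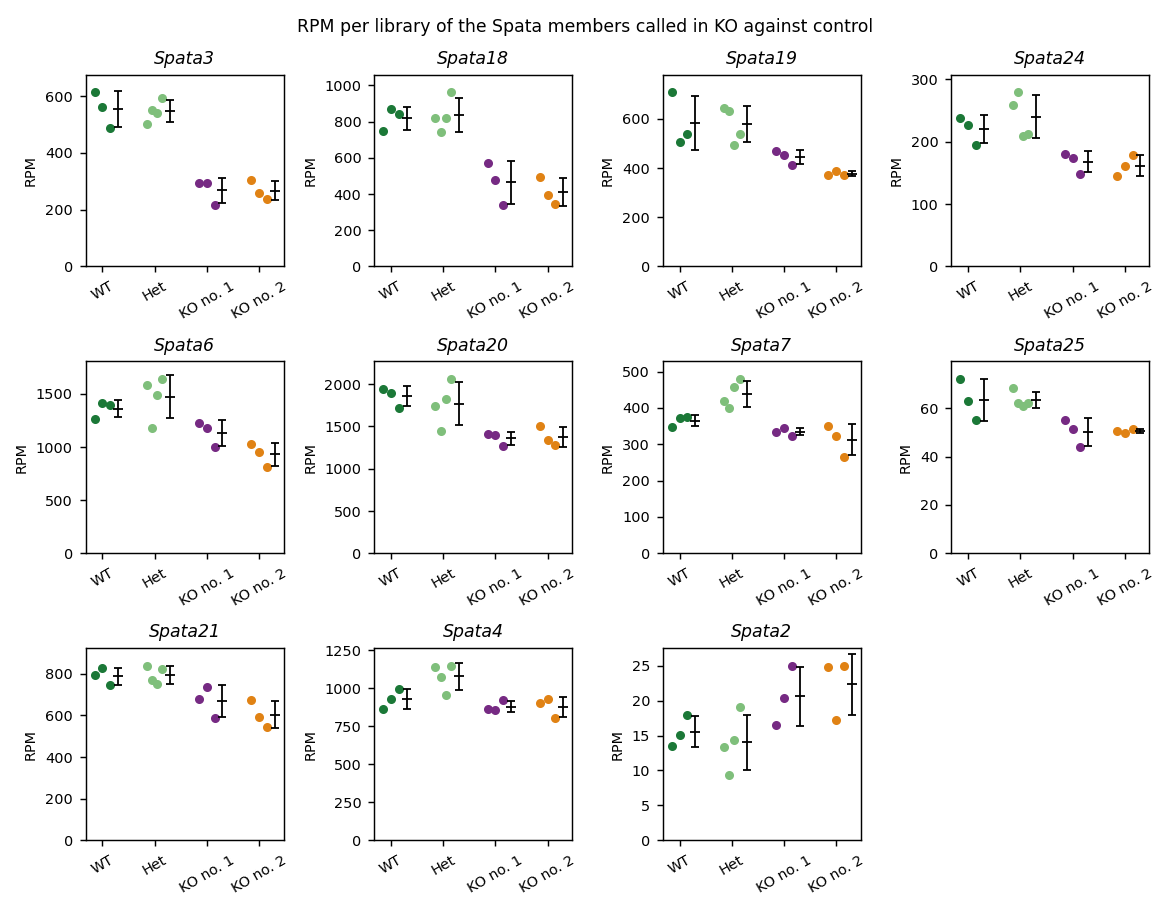
RPM in each library for the 11 called members, by group, with the mean and SD in black and each vertical axis starting at 0. The KO libraries of both title numbers sit below every control for Spata3 and Spata18, and the groups overlap for Spata6, Spata20, Spata7, Spata4 and Spata2.

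Spata3, a gene of the testis whose protein has no function assigned here, fell the furthest. Its control libraries were at 488 RPM (lowest), 553 (median) and 615 (highest), and its KO libraries at 217, 275 and 305 RPM. The highest KO library thus stood well below the lowest control. The means were 551 ± 45.9 (SD, n = 7) and 268 ± 35.2 RPM (n = 6), a 2.06-fold lower level (log2 -1.05, SE 0.0855, limma adjusted p = 4.03e-07). Among all 16235 genes tested its log2 fall ranked 88 by size.

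A pair of members act in or on mitochondria, and both fell. Spata18 (also known as Mieap), a p53-responsive protein of mitochondrial quality control, was at 741, 819 and 964 RPM (lowest, median, highest) in the controls. In the KO-labelled libraries it was at 342, 436 and 574 RPM, all below the controls. The means were 828 ± 75.8 and 438 ± 92.4 RPM, 1.92-fold lower (log2 -0.94, SE 0.106, limma adjusted p = 5.15e-06). The KO libraries varied more for this gene than the controls, with a coefficient of variation of 21.1% against 9.15%.

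Spata19, a mitochondrial protein of sperm that male mice need for fertility, was at 495, 539.9 and 709 RPM in the controls. The KO-labelled libraries held 370.03, 399.8 and 467 RPM and did not reach the lowest control. The means were 580.3 ± 81.7 and 410.4 ± 41.9 RPM (log2 -0.49, SE 0.0900, limma adjusted p = 0.00049). Other genes of the sperm mitochondrial sheath and of sperm calcineurin moved in both directions. They are from a list written for this gene and for Spata33, which has no row under that name here. Of 12 tested 4 fell and 1 rose, with a median of -0.05. Among all genes tested 6.18% fell and 18.4% rose. Of those with a mean of at least 100 RPM 22.2% fell and 12.1% rose. Smcp, which encodes a protein of the mitochondrial capsule, fell by 1.18 (log2) (limma adjusted p = 1.09e-06), and Tbc1d21 fell by 0.54 (5.32e-05). The mitochondrial channel gene Vdac1 rose by 0.99 (adjusted p = 0.000246). Of 6 tested genes of mitochondrial quality control, a list set beside Spata18, none fell and 4 rose, with a median of 0.66. Among all genes tested 18.4% rose, and their median was 0.16. Bnip3, a mitophagy receptor, was among the 4 (0.72, adjusted p = 0.025), and the other 2 of the list were not called. A link of these rises to Spata18 was not tested.

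A pair of members shape the sperm head and its joint with the tail, and only Spata6 was called. Spata6 is needed for the connecting piece that holds head and tail together. Its controls were at 1183, 1418 and 1642 RPM and the KO-labelled libraries at 817, 1015 and 1229 RPM. The ranges overlapped, as KO replicate 1 (1229 RPM) stood above Het replicate 2 (1183 RPM). The means were 1426 ± 163 and 1034 ± 150.5 RPM (log2 -0.47, SE 0.0917, limma adjusted p = 0.000891). Among all genes tested 6.18% fell, as did 22.2% of those with a mean of at least 100 RPM. Of 13 other tested genes of head and tail coupling 7 fell and none rose, with a median of -0.23. They included the outer dense fibre gene Odf1 (log2 -0.95, adjusted p = 0.00011) and Pmfbp1, which is also needed for the joint (log2 -0.45, adjusted p = 0.000456).

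Spata16, a Golgi and acrosome protein whose loss gives round-headed sperm in men, was at 420, 468 and 496 RPM in controls and 423, 473 and 555 RPM in the KO-labelled libraries. The ranges overlapped, with KO replicates 5 and 6 above every control and the other 4 within the control range (log2 0.03, SE 0.0726, limma adjusted p = 0.817). It was at 436 ± 17.7 RPM (n = 3) in the KO libraries of number 1 and 517 ± 34.3 RPM (n = 3) in those of number 2. That difference was 0.24 (SE 0.0918) with an unadjusted p of 0.0147 and a limma adjusted p of 0.284. The sign of the difference from the controls turned with median-of-ratios scaling (log2 -0.12, adjusted p = 0.256) and without KO replicate 6 (-0.02, adjusted p = 0.879). Of 12 tested genes of acrosome formation and sperm head shape 5 fell and 1 rose, with a median of -0.13. Among all genes tested 6.18% fell and 18.4% rose. Of those with a mean of at least 100 RPM 22.2% fell and 12.1% rose. Fam71f1 (log2 -0.57, adjusted p = 4.69e-05) and the actin-like gene Actl9 (log2 -0.34, adjusted p = 0.0034) fell, and Pick1 rose (log2 0.35, adjusted p = 0.047).

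Spata7, a protein of the connecting cilium of photoreceptors in which mutations cause loss of sight, is also expressed in the testis. It was at 348, 399.9 and 480.1 RPM in controls and 265, 329 and 350.3 RPM in the KO-labelled libraries. Only KO replicate 4 (350.3 RPM) stood above the lowest control, WT replicate 1 (348 RPM). The means were 408 ± 47.8 and 324 ± 30.5 RPM (log2 -0.33, SE 0.0854, limma adjusted p = 0.00773). The call ended with quantile normalization (log2 -0.24, adjusted p = 0.052). None of 6 tested genes for its known partners at the cilium was called by limma, and their median was 0.06.

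The next 3 members carry protein motifs of known kind. Spata20, a large protein with a thioredoxin-like part, was at 1449, 1829 and 2063 RPM in controls and 1270.1, 1370.1 and 1504 RPM in the KO-labelled libraries. Only KO replicate 4 stood above the lowest control, Het replicate 2 (log2 -0.40, SE 0.0739, limma adjusted p = 0.000559). Spata21, which has EF-hand motifs that bind calcium, was at 747, 793 and 839 RPM against 546, 632 and 739 RPM, with no overlap. It was the steadiest member in the controls, with a coefficient of variation of 4.86%. Its fall (log2 -0.32, SE 0.0722, adjusted p = 0.00252) was not called with quantile normalization (log2 -0.16, adjusted p = 0.0918). Spata17, with motifs that bind calmodulin, was at 75.7, 99.1 and 116 RPM in controls and 76.8, 82.3 and 92.6 RPM in the KO-labelled libraries. It was not called (log2 -0.21, SE 0.0989, adjusted p = 0.126), but it passed with median-of-ratios scaling (log2 -0.36, adjusted p = 0.0136), with quantile normalization (-0.29, 0.0486) and without WT replicate 3 (-0.27, 0.0395).

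Spata24, Spata25, Spata4, Spata9 and Spata1 are testis genes without a role given here. The controls for Spata24 were at 195, 227 and 279.9 RPM and the KO-labelled libraries at 145, 168 and 181 RPM, without overlap (log2 -0.49, SE 0.0912, limma adjusted p = 0.000622). Spata25 was at 55.1, 62.3 and 72.1 RPM in controls and 43.8, 50.9 and 55.1 RPM in the KO-labelled libraries (log2 -0.33, SE 0.0957, adjusted p = 0.0165). Its separation was narrow, since the highest KO library and the lowest control were both at 55.1 RPM when rounded. Spata25 shares 483 bases with Zswim1 on the other strand, which was at 34.2 ± 6.34 and 34.9 ± 6.52 RPM (log2 0.03, adjusted p = 0.907). Spata4 was at 862, 996 and 1147 RPM against 803, 879.5 and 929.6 RPM. The ranges overlapped, and the fall was small (log2 -0.20, SE 0.0725, limma adjusted p = 0.0452). This call ended without WT replicate 3, any 1 of Het replicates 1 to 4 or any 1 of KO replicates 1 to 4 and 6 (adjusted p = 0.0503 to 0.0993), with no filter on low values (0.0896) and with quantile normalization (log2 -0.08, adjusted p = 0.456). Spata9 (148 ± 30.6 against 134 ± 14.3 RPM, log2 -0.12, adjusted p = 0.477) and Spata1 (84.7 ± 9.99 against 78.1 ± 15.6 RPM, log2 -0.13, adjusted p = 0.456) were not called. Spata4 overlaps 5330439A09Rik on the other strand by 207 bases. That gene fell alike (log2 -0.25, adjusted p = 0.0414), and since the strand of counting is not given, their reads in the shared bases cannot be told apart.

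The 1 tested member with a role in meiosis was not called. Spata22 acts with Meiob in the repair of meiotic DNA breaks. It was at 7.49, 8.58 and 12.2 RPM in controls and 4.06, 8.89 and 12.9 RPM in the KO-labelled libraries, and the KO range held the control range (log2 -0.19, SE 0.226, limma adjusted p = 0.587). The 2 lowest libraries were KO replicate 1 at 4.06 and KO replicate 2 at 5.96 RPM. The gene had 29 to 126 reads in a library, so counting error is a larger part of its spread than for the other germ cell members. Of 11 tested genes of meiotic recombination none fell and 2 rose (18.4% of all genes rose), with a median of 0.15. Mcm8, a helicase gene of meiotic repair, was among those that rose (log2 0.52, adjusted p = 0.0388). Meiob, listed as 4930528F23Rik, was at 19.3 ± 3.83 and 21.7 ± 4.67 RPM (adjusted p = 0.546).

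Among the members used in many tissues, Spata2 rose. Spata2 is an adaptor that brings the deubiquitinase CYLD to the linear ubiquitin ligase in signalling from TNF receptors. Its controls were at 9.35, 14.3 and 19.0 RPM and the KO-labelled libraries at 16.5, 22.6 and 25.03 RPM. KO replicates 1 and 5 lay within the control range and the other 4 above it. The means were 14.7 ± 3.19 and 21.5 ± 3.98 RPM, a 1.44-fold rise with 6 of 6 KO-labelled libraries above the control mean (log2 0.53, SE 0.171, limma adjusted p = 0.0274). The call ended with median-of-ratios scaling (log2 0.39, adjusted p = 0.111) and quantile normalization (0.26, 0.328). It also ended without Het replicate 2 (0.44, adjusted p = 0.0573), KO replicate 3 (0.48, 0.0653), KO replicate 4 (0.49, 0.0591) or KO replicate 6 (0.48, 0.0569). Spata2 overlaps Rnf114 by 243 bases on the other strand, and Rnf114 was at 113 ± 10.7 and 132 ± 19.9 RPM (log2 0.22, adjusted p = 0.121). Of 9 tested genes of the same signalling step none fell and 2 rose, with a median of 0.34, a share near the 18.4% of all genes that rose. They were Ikbkg, the regulatory subunit of the IkB kinase (log2 1.20, adjusted p = 9.45e-06), and the TNF receptor gene Tnfrsf1a (log2 1.12, adjusted p = 0.000118). Cyld was at 16.8 ± 3.84 and 20.9 ± 5.17 RPM (log2 0.29, adjusted p = 0.273).

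Spata2l, the relative of Spata2, was at 29.7 ± 7.08 RPM in controls and 30.6 ± 3.495 RPM in the KO-labelled libraries (log2 0.07, SE 0.154, limma adjusted p = 0.774), a difference whose sign turned with either other scaling (-0.08 and -0.15). The whole of Spata2l lies within the 3955 bases it shares with Gm20388, which was at 3190.4 ± 262 RPM in the controls, so how reads were divided between them bears on its value. Spata5, an ATPase that recycles factors from maturing ribosomes, was at 101, 113 and 135 RPM in controls and 82.1, 145 and 150.2 RPM in the KO-labelled libraries. Of the latter 4 stood above every control, KO replicate 1 (131 RPM) lay within them, and KO replicate 2 (82.1 RPM) lay below them (log2 0.20, SE 0.123, limma adjusted p = 0.256). Without KO replicate 2 the gene was called higher (log2 0.33, adjusted p = 0.0142), but with median-of-ratios scaling the difference was 0.05 (adjusted p = 0.833). Its relative Spata5l1 was at most 0.379 RPM in any library. Of 4 tested genes listed with Spata5, 1 rose (18.4% of all genes did), the ATPase gene Vcp (log2 0.58, adjusted p = 0.000355). The other 3 were not called. Spata13, a guanine nucleotide exchange factor, was at 3.30 to 10.2 RPM in controls and 3.77 to 9.11 RPM in the KO-labelled libraries (log2 0.12, SE 0.247, adjusted p = 0.759).

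The difference between title numbers was tested for each member. Against all controls, 8 of 19 members fell in the KO libraries of number 1 (5.74% of all genes tested) and 8 fell in those of number 2 (4.64%), and none rose in either set (17.0% and 7.8% of all genes). Both sets were compared with the same controls, of which only Het replicate 1 has title number 1. In 8 members the number 1 libraries lay below all controls (5.38% of all genes), and in 7 members the number 2 libraries did (4.79%). Spata3 differed from them by -1.05 in number 1 and -1.05 in number 2 (SE 0.106 each). Spata18 differed by -0.86 and -1.02 (SE 0.128 each), Spata19 by -0.38 and -0.61 (SE 0.103), and Spata6 by -0.33 and -0.61 (SE 0.101). Number 2 against number 1 itself gave no called member with limma (0 with limma-voom, and 2 members, Spata6 and Spata16, at an unadjusted p under 0.05). Of all genes tested 0.0986% were lower and 0.0801% higher in number 2. The largest of these differences in size, in Spata22, was 0.40 (SE 0.324, limma adjusted p = 0.664). The falls of Spata3 and Spata18 were thus as large in the KO libraries of number 2, whose Wfdc15a RNA overlapped the controls, as in those of number 1. The count for number 1 dropped from 8 to 3 without KO replicate 3.

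**Figure D3:**
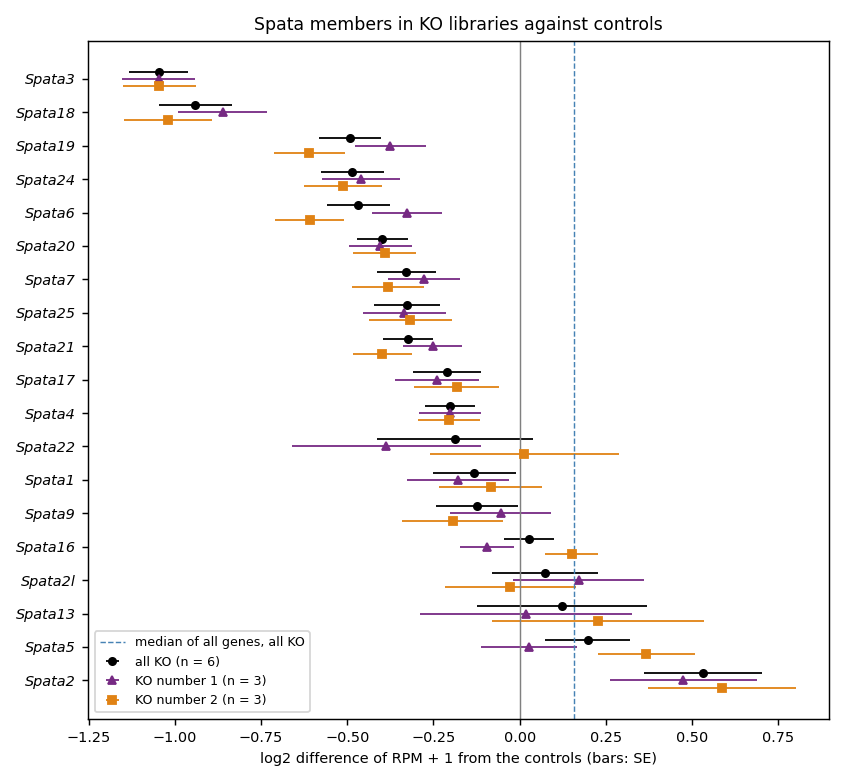
Log2 difference of RPM + 1 from the 7 controls, with its SE, for each tested member in all 6 KO-labelled libraries (black) and in those of title number 1 (purple) and 2 (orange). The dashed line is the median of all genes (0.16), and Spata3 and Spata18 lie furthest left in each set.

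The controls were pooled, so WT and Het were also compared. No member was called in Het against WT with limma (0 of 19, also 0 with limma-voom, and 3 at an unadjusted p under 0.05), and no gene of all those tested was (0.0% in each direction, 957 at an unadjusted p under 0.05). The 3 members were Spata7, Spata4 and Spata2l. Spata7 was at 348, 373 and 375 RPM in WT replicates 1 to 3 and at 420.1, 399.9, 457 and 480.1 RPM in Het replicates 1 to 4, so these groups did not overlap (log2 0.26, SE 0.105, limma adjusted p = 0.723). Spata4 was at 928 ± 67.1 RPM (n = 3) in WT and 1078 ± 89.1 RPM (n = 4) in Het (log2 0.21, SE 0.0903, adjusted p = 0.744), and Spata2l at 34.7 ± 5.34 and 25.9 ± 6.02 RPM (log2 -0.43, SE 0.193, adjusted p = 0.786).

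Against Het alone 10 members fell (5.15% of all genes tested) and 1 rose (16.9%), and against WT alone 7 fell (3.34%) and none rose (6.05%). The members called against Het and not against WT were Spata7, Spata25, Spata4 and Spata2. Spata7 differed by -0.44 from Het (SE 0.0887, limma adjusted p = 0.0013) and by -0.18 from WT (SE 0.0972, adjusted p = 0.26). Spata4 differed by -0.30 from Het (adjusted p = 0.0084) and by -0.08 from WT (adjusted p = 0.589). Spata3 was lower against both, by -1.04 (SE 0.102) from Het and by -1.06 (SE 0.111) from WT. The WT count rests on 3 libraries, and it was 2 without WT replicate 1, 4 without WT replicate 2 and 4 without KO replicate 3.

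Markers of the cell types in the testis moved in the same comparison. All 10 late spermatid markers fell, with a median of -1.10 and a summed level of 13727 to 18142 RPM in controls and 5712 to 9064 RPM in the KO-labelled libraries. Of 10 round spermatid markers 3 fell and none rose (median -0.14), with sums of 2585 to 2811 RPM and 2286 to 2479 RPM. Of 10 pachytene spermatocyte markers 3 fell and none rose (median 0.02), with sums of 9875 to 11567 RPM and 9579 to 10643 RPM. Among all genes tested 6.18% fell. Of those with a mean of at least 100 RPM, as most round spermatid and pachytene markers have, 22.2% fell. The round spermatid and pachytene shares are near the latter. None of 10 early meiotic markers fell and 1 rose, with sums of 734 to 779 RPM and 669 to 829.9 RPM. Of 10 spermatogonial markers 2 rose, with sums of 214 to 281 RPM and 268 to 425 RPM. The spermatogonial share is near the 18.4% of all genes that rose, and the early meiotic share is below it. The differences of Spata3 and Spata18, -1.05 and -0.94, thus lay within the range of the late spermatid markers, -1.28 to -0.73. The other called falls, -0.49 to -0.20, lay outside that range. They were within those of the round spermatid markers, -0.61 to 0.13, and the pachytene markers, -0.57 to 0.23. Tssk2 (-0.61) and Pgk2 (-0.57) alone set the low ends of these ranges. The next lowest round spermatid marker was at -0.25 and the next lowest pachytene marker at -0.24. Apart from Spata4 (-0.20), the other called falls, -0.49 to -0.32, lay below both of these values. Of the somatic markers 6 of 10 Sertoli, 9 of 10 Leydig, 5 of 8 macrophage, 2 of 5 endothelial and 1 of 5 peritubular markers rose, beside 18.4% of all genes, and none fell. The peritubular share is near that of all genes. The Sertoli markers summed to 1475 to 2467 RPM in controls and 2605 to 4061 RPM in the KO-labelled libraries, the Leydig markers to 2541 to 4578 RPM and 6075 to 10243 RPM, and the macrophage markers to 63.2 to 98.5 RPM and 121 to 270.2 RPM. Peritubular markers summed to 46.8 to 116 RPM and 73.1 to 145 RPM, and endothelial markers to 6.61 to 32.2 RPM and 26.4 to 47.8 RPM. No marker was at 0 in a library other than Ptprc, a leukocyte marker. These marker lists share genes with the lists set beside single members, so the counts are not separate. Odf1 and Oaz3 of the head and tail list and Smcp of the mitochondrial list are among the late spermatid markers. Meiob and Dmc1 of the meiotic recombination list are among the early meiotic markers. The acrosome list shares genes with the round spermatid markers. The part of the marker shifts in the differences of the Spata members was not tested.

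**Figure D4:**
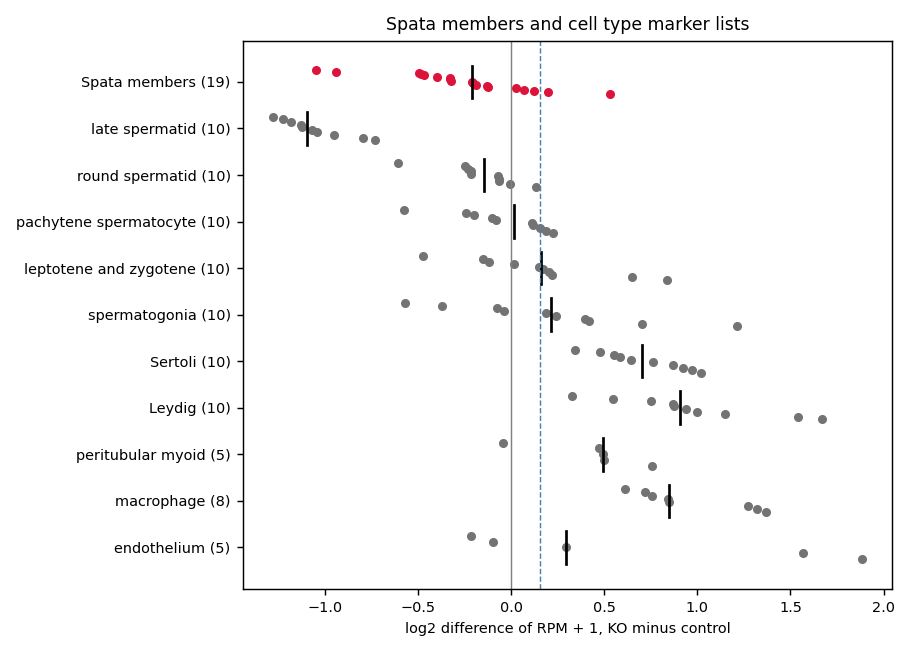
Log2 difference of RPM + 1 between KO-labelled libraries and controls for each tested Spata member (red) and each marker of 10 cell types (grey), with the number of genes in brackets and a black bar at each median. The Spata members spread from the late spermatid range at -1.05 to 0.53, and the dashed line is the median of all genes at 0.16.

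The CpG content before the start sites is given as a description. RefSeq gives a promoter for 18 members, those other than Spata2l and Spata24. The start sites used for Spata20 and Spata13 lie 869 and 704 bases inside the deposited spans of these genes. Their windows, like that of Spata3, thus do not lie before the start of the span. In the 250 bases before the start, the 9 members that fell and have a promoter held a median of 4 CpGs, the 7 that were not called held a median of 22, and all 32851 RefSeq promoters held a median of 6. Among those that fell, Spata19 and Spata21 had 2, Spata25 had 3, Spata3 and Spata20 had 4, Spata4 had 6, Spata6 had 9, Spata7 had 12 and Spata18 had 24. Among those not called, Spata9 had 1, Spata16 had 8, Spata13 had 16, Spata22 had 22, Spata17 had 27, Spata5 had 28 and Spata1 had 39, and Spata2, which rose, had 31. The ranges overlap, from 2 to 24 CpGs in those that fell and from 1 to 39 in those not called, and no test was made. The letters TGACG, the core of the site bound by the CREB and CREM factors, were searched on both strands. They were in 7 of the 18 members' windows (3 of 9 that fell: Spata6, Spata7 and Spata18), and in 17.8% of all RefSeq promoter windows of this length. The full palindrome TGACGTCA, which contains TGACG, was in none of the members' windows and in 1.55% of all.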

How the data were processed

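The deposited table holds log2 RPM, made by the authors, for 25965 genes in 13 libraries of whole testis. Per the labels' protocols, libraries were made by Smart-seq2 from about 2 ng of RNA, amplified over 11 PCR cycles. FastQC 0.11.8, Trim Galore 0.6.6 and the mm10 genome are named in the submitters' processing notes. No aligner, counter or strand is given in the sources used here.

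Values were turned back to RPM. The lowest value in each library is that of 0.9 read and was set to 0. Above it at least 99.96% of values were whole reads (within 0.01 read). Differences are from limma 3.58.1 (R 4.3.3) with a mean-variance trend, on log2(RPM + 1), over the 16235 genes whose mean reached 1 RPM, two-sided, with Benjamini-Hochberg adjustment over all of them and a threshold of 0.05. KO against control had 2 groups, the comparisons with WT and Het 3, and the title numbers were separate KO groups. Fold changes are on the RPM + 1 scale. Libraries were taken as separate mice because the design text counts mice. Same-numbered replicates did not deviate together, so replicate numbers were not used as pairs. Deviations from group means did follow the title number for Het replicate 1, the only control of number 1. Its correlations were 0.126, 0.110 and 0.114 with KO replicates 1 to 3, and -0.130, -0.129 and -0.096 with KO replicates 4 to 6. A batch by title number was not tested.

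All 20 members are reported. Full values are given for each called member and for relatives by name, and up to 3 genes, those with the lowest adjusted p, may be named per list. Meiob, Cyld and Pick1 were named outside that rule, after their values were seen. The members and lists were chosen with earlier results of these data known. Names missing from the table were looked up among RefSeq synonyms. Exon lengths are from GENCODE M21 (GRCm38), in which 13 members have the same ends as in the table. Not every list gene the rule selects is reported here.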

Additional observations from a re-analysis of the deposited data

Results flagged for a closer look

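In 4 of 60 groups examined (each member in Het, KO and all controls, which also hold the Het libraries) 1 library stood apart from the rest of its group, and chance gives about 1 in 20. Spata5 was at 82.1 RPM in KO replicate 2, and the next lowest library labelled KO was at 131 RPM. Spata7 and Spata9 were both lowest in KO replicate 6, at 265 RPM (next 324) and 105 RPM (next 136). Spata13 was at 10.2 RPM in Het replicate 2, and the next highest control was at 5.46 RPM.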

How the results depend on the processing

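The falls of Spata3, Spata18, Spata19, Spata24, Spata6 and Spata20 kept their direction and their call in all 23 alternatives, among them both other scalings, limma-voom on recovered reads and the loss of any 1 library. The count of members that fell, 10, was 11 with median-of-ratios scaling, 8 with quantile normalization and 7 with title number 2 only, and 9 to 10 without 1 library. The count that rose, 1, was 0 with median-of-ratios scaling, 0 with quantile normalization and 0 to 2 without 1 library. With title number as a factor 10 fell and 1 rose. With the replicate block (replicate number as a factor, though numbers do not pair the mice) 9 fell and 0 rose, Spata2 having adjusted p = 0.0563 and Spata4 0.0719. Quantile normalization gave 4 called members in KO against WT and 5 for KO of title number 1 against all controls. Without 1 library, chosen after seeing the data for these, counts were 2 to 8 for KO against WT, 9 to 11 for KO against Het, 3 to 9 for title number 1, 7 to 9 for number 2, and 0 to 0 for Het against WT and for number 2 against number 1. Signs turned only for uncalled members: Spata16 with median-of-ratios scaling (-0.12), the replicate block (-0.060) and without KO replicate 6 (-0.018, where leaving out 1 library gave up to 0.061), Spata2l with median-of-ratios scaling (-0.076), quantile normalization (-0.15), title number 2 only (-0.13) and without Het replicate 1 (-0.035, up to 0.144), and Spata13 with the same 2 scalings (-0.0049 and -0.15), the block (-0.050) and without KO replicate 5 (-0.00315, up to 0.274). With title number 2 only, the calls of Spata7 (adjusted p = 0.0522), Spata25 (0.144), Spata4 (0.263) and Spata2 (0.122) ended and Spata5 was called (0.0492). The causes were not tested. Median-of-ratios scaling moved the median difference of all genes by -0.14 (from 0.16 to 0.02) and quantile normalization by -0.17. Under them 10.6% and 9.44% of all genes fell and 10.5% and 8.99% rose. Depth limits Spata22, Spata13 and Spata5l1.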
